A study of Mus musculus with 15 samples.

Results

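H3K4me3 summits inside exons and away from transcription start sites (TSSs) were examined in the amygdala of WT mice. A summit is the single position at which the peak caller placed the top of a peak. Members were summits on chromosomes 1 to 19 and X that lay more than 1 kb from every TSS of GENCODE version M21, fell inside an exon of any transcript and did not fall inside the 3′ UTR of a coding transcript. The rule used positions only, never the score. It gave 703 of 24132 summits, or 2.91% (95% Wilson interval 2.71 to 3.13), and 10.2% (9.53 to 10.96) of the 6877 summits that lay more than 1 kb from a TSS.

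H3K4me3 was measured by native ChIP-seq in adult male amygdala of 4 genotypes that were F1 129xB6 hybrids (129S1/SvImJ by C57BL/6J). The genotypes were WT, *Kmt2a*-HET (heterozygous), *Kdm5c*-KO (hemizygous knockout) and the double mutant (DM), which carried both mutations. The aim was to ask how they alter the H3K4me3 landscape. *Kmt2a* encodes an H3K4 methyltransferase, of which 1 copy was lost, and *Kdm5c* an H3K4 demethylase. The series held 11 H3K4me3 samples and 4 inputs, and 2 of the H3K4me3 samples came from WT mice. Both WT mice carried intact *Kmt2a* and *Kdm5c*, and their peaks were deposited as 1 pooled list called against the input. Only that list was analysed here, so there was no spread between animals, no comparison between genotypes and no test between classes of summits, and intervals cover counting error only.

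Each summit carries a score, which was read as −log10 of the MACS2 q-value. The lowest, median and highest scores of the list were 1.18, 102.3 and 341.7. The number of reads at a summit cannot be read from the list. The score grows with read depth as well as with enrichment, and tissue was used whole, so a high level of the mark in few cells and a low level in many cells cannot be told apart. Promoter summits were present at all markers looked up for neurons (4 of 4), amygdala excitatory neurons (4 of 4), inhibitory neurons (3 of 3), astrocytes (4 of 4), oligodendrocytes (4 of 4), microglia (4 of 4) and endothelium (3 of 3). None of 3 liver markers had one, and 1 of 3 skeletal muscle markers did, *Ckm*, with a score of 9.05. Scores of the brain and vessel markers ran from 6.81 to 284.3, so the lowest of them lay below that of *Ckm*.

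Trimethylation of lysine 4 of histone H3 is laid down by methyltransferases of the KMT2 and SET1 families and removed by KDM5 demethylases. It is known as the mark of active and poised promoters, where it covers the nucleosomes just downstream of the TSS. Several of the enzyme complexes contain CXXC zinc finger domains that bind unmethylated CpG dinucleotides, and promoters within CpG islands therefore tend to carry the mark broadly. Coding exons are mostly poor in CpG and heavily methylated, but some long exons hold CpG islands of their own.

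Sequences of 30 bases centred on the summit are shown first for 6 of the 7 highest-scoring members in coding sequence more than 5 kb from any GENCODE TSS, because they lay far from every GENCODE promoter. They were read from GRCm38, the assembly also called mm10, on the strand of the gene, and CpG dinucleotides are in capitals.
Kctd4, chr14:75963328-75963357, plus strand: agggtcaattgttcacagCGatgcacttca
Pomc, chr12:3960172-3960201, plus strand: aagaaaCGgCGccCGgtgaaggtgtacccc
Fgf23, chr6:127080241-127080270, plus strand: cccaCGgCGccacaCGCGcagCGcCGagga
Gm5737, chr7:120831120-120831149, plus strand: tgttCGccctgctCGgcctggccctgtact
Zfp697, chr3:98427465-98427494, plus strand: ccatggccatggacctCGgggaactagaca
Trim14, chr4:46507024-46507053, minus strand: CGgctCGgCGtcttcctggactaCGaggcc

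All 6 lay in coding sequence of the last exon of their transcript. In the 500 bp around the summit, 5 of them were rich in CpG, with an observed over expected CpG ratio of 0.69 at *Zfp697* to 0.88 at *Trim14*, whereas *Kctd4* stood at 0.36 with 44.6% GC. *Kctd4*, whose protein belongs to the potassium channel tetramerization domain family, had the highest score of the set, 235.0, in exon 2 of 2 and 8333 bp from the nearest TSS. No summit lay within 1 kb of any of its TSSs. *Pomc*, which encodes the precursor of the melanocortins and beta-endorphin, scored 190.6 in its last exon, 681 bp long and 5216 bp from the nearest TSS, and it too had no promoter summit. *Fgf23*, a hormone gene of phosphate balance, scored 145.1 at 7353 bp, and its promoter also carried no summit. RefSeq placed a TSS 2109 bp from the *Fgf23* summit and 4426 bp from that of *Gm5737*, and none within 5 kb of the other members printed. *Zfp697*, a zinc finger gene, scored 132.2 at 21497 bp from a TSS, and its promoter summit scored 252.6. *Trim14*, a tripartite motif gene, scored 129.2 in an exon of 581 bp, against 48.2 at its promoter. The remaining one, *Nrg2*, a neuregulin gene whose sequence is not shown, ranked between *Fgf23* and *Gm5737* with 138.2, also in coding sequence of its last exon, 13272 bp from a TSS.

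The 703 members had a median score of 17.1 (95% interval 14.2 to 19.95), with quartiles of 6.24 and 54.8 and a highest value of 309.6. The median was 165.2 over the 17255 promoter summits, 8.95 over the 2177 first-intron summits, 9.94 over the 1147 summits of other introns, 10.6 over the 222 summits of 3′ UTRs and 15.4 over the 2628 intergenic summits. Most members were thus low in the list, and 274 of them (39.0%, 35.4 to 42.6) scored below 10. At the other end, 102 members (14.5%, 12.1 to 17.3) reached the median of the list, compared with 66.2% of promoter summits, 9.28% of first-intron summits, 5.58% of summits in other introns, 9.70% of intergenic summits and 9.01% of 3′ UTR summits.

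**Figure D1:**
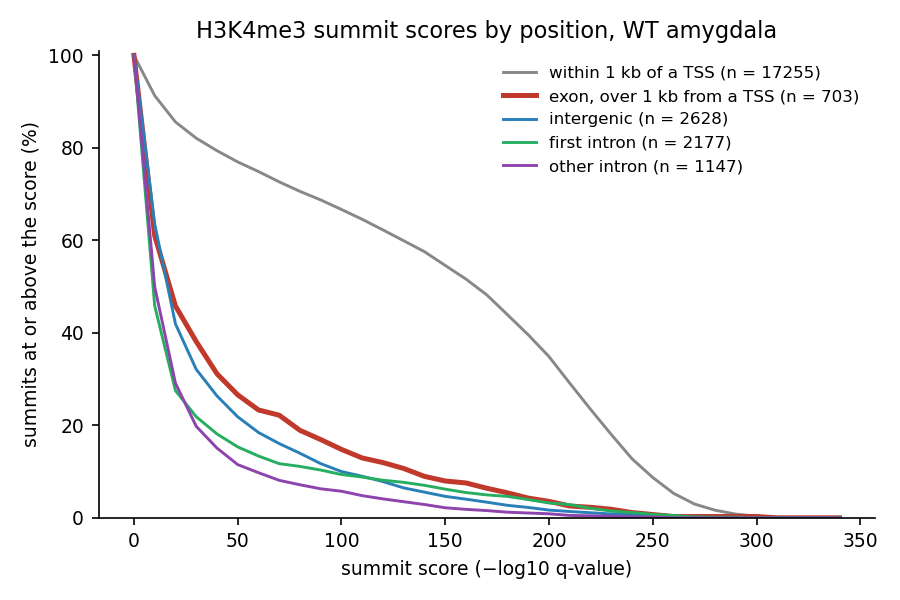
Percentage of H3K4me3 summits (vertical axis) whose score is at or above the value on the horizontal axis (−log10 of the q-value), for 5 classes of position in the pooled WT list. The exon curve runs above both intron curves up to a score of about 200, with 14.5% of its 703 summits at or above the median of the list, and far below the promoter curve.

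Exons more than 1 kb from a TSS and outside 3′ UTRs covered 49.8 Mb and held 14.1 summits per Mb. Introns held 3.29 and intergenic sequence 1.90 summits per Mb, and 3′ UTRs held 6.56. The density in exons was 4.29 times that in introns (counting interval 3.96 to 4.66). Lengths were not corrected for assembly gaps or for sequence where reads cannot align uniquely. The ratio was also not adjusted for distance to a TSS, which had a median of 2702 bp for members and 10212 bp for other-intron summits. Restricted to scores that reached the list median, the ratio was 7.78 (6.19 to 9.78), and for scores of 10 or more it was 5.54 (4.98 to 6.17). The share of members among the summits of a chromosome ran from 2.06% on chromosome 4 to 4.34% (3.12 to 6.01) on chromosome 19.

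By type of sequence, 509 members (72.4%, 69.0 to 75.6) lay in coding sequence, 18 (2.56%) in 5′ UTRs and 176 (25.04%) in exons with no coding sequence at that position, either of non-coding genes or of non-coding transcripts of coding genes. Their median scores were 20.6, 35.98 and 9.05, respectively. Protein-coding genes hosted 595 members (84.6%). By place in the transcript, 288 members were in internal exons, 280 in last exons, 88 in single-exon transcripts and 47 in first exons that were long enough for a summit to lie more than 1 kb downstream of the TSS. First-exon members had a median score of 154 with quartiles of 35.6 and 199.2, and internal exons had a median of 14.2, last exons 18.8 and single exons 10.1. Scores in single-exon transcripts were widely spread, with an upper quartile of 105.4.

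Distance to the nearest TSS had a median of 2702 bp and ran from 1003 to 221892 bp. Between 1 and 2 kb there were 270 members with a median score of 25.9, between 2 and 5 kb 213 with 13.8, between 5 and 20 kb 178 with 18.8, and beyond 20 kb 42 with 11.9. The corresponding medians of other-intron summits were 9.92, 9.05, 10.1 and 9.85, below the exon values in each distance class. Those of intergenic summits were 15.3, 18.6, 16.3 and 12.9, above the exon values at 2 to 5 kb and beyond 20 kb, and the 9 summits of 3′ UTRs beyond 20 kb had 13.2. Of the 102 members at or above the list median, 68 (66.7%, 57.1 to 75.1) lay within 2 kb of a TSS, against 202 of 601 lower members (33.6%, 29.9 to 37.5). In first or single exons were 52 of the 102 (51.0%, 41.4 to 60.5), against 83 of the 601 (13.8%, 11.3 to 16.8). The 2 contrasts overlap, because such exons start at a TSS. They held 106 of the 270 members between 1 and 2 kb, 29 of the 213 between 2 and 5 kb and 0 beyond. Across the 703 members, score and distance had a Spearman rho of −0.09, which describes summits of a single list.

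**Figure D2:**
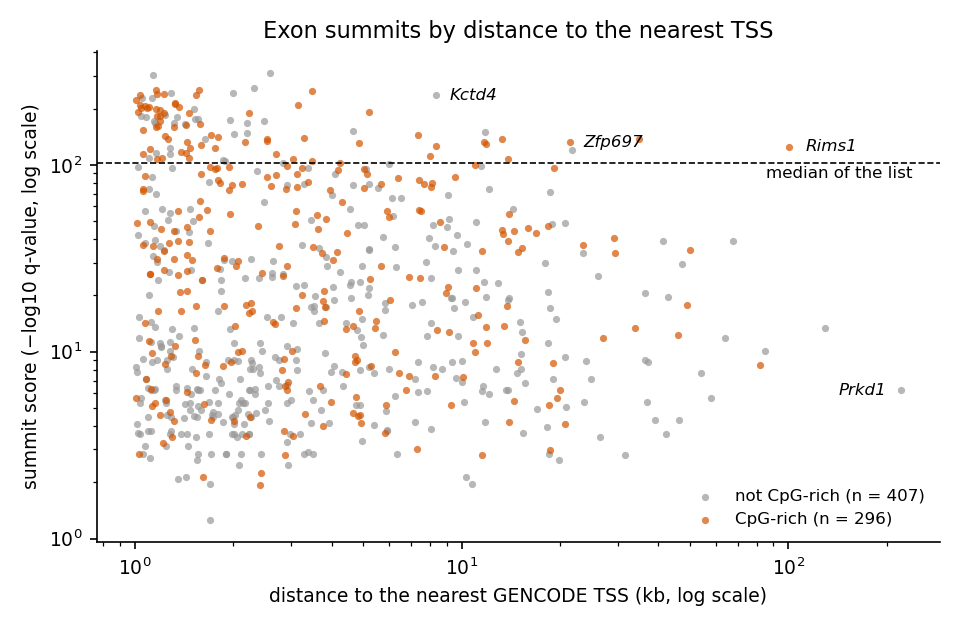
Score of each of the 703 exon summits (vertical log axis, −log10 of the q-value) against distance to the nearest annotated TSS (horizontal log axis, kb), with CpG-rich members in orange and others in grey. Of the 102 members at or above the dashed line, the median of the list, 68 lie within 2 kb of a TSS, and *Kctd4*, *Zfp697* and *Rims1* are labelled among those farther away.

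At the 1 kb limit itself, the members just inside were *Gadd45gip1* at 1003 bp with a score of 222.8, *Phkg1* at 1006 bp with 8.28 and *Tnxb* at 1010 bp with 5.64. The summits just outside were those of *Siah2* at 1000 bp with 239.96, *Tead3* at 999 bp with 15.5 and *Rxfp3* at 999 bp with 54.0. RefSeq placed a TSS within 1 kb of 77 members (10.95%, 8.85 to 13.5), and did so for 24 of the 102 members at or above the list median (23.5%, 16.4 to 32.6) and for 53 of the 601 others (8.82%, 6.81 to 11.4). For these 77 members, the distance to a TSS depended on the annotation used.

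A window of 500 bp was called CpG-rich where its GC content was at least 50% and its CpG ratio at least 0.6. Of the members, 296 (42.1%, 38.5 to 45.8) were CpG-rich, compared with 60.8% of promoter summits, 11.2% of first-intron summits, 10.9% of other-intron summits, 21.2% of 3′ UTR summits and 19.6% of intergenic summits. CpG-rich members had a median score of 34.6 (26.995 to 44.2), and the other 407 had 10.1 (8.86 to 12.3). When the members were ordered by CpG ratio and cut into 5 equal groups, the median score was 6.52 in the lowest group, then 12.7, 19.6, 32.1 and 36.2 in the highest, and the number at or above the list median went from 3 of 141 to 33 of 141. Across members, the Spearman rho of score with CpG ratio was 0.35 (n = 703). CpG ratio and distance had a rho of 0.02. The higher score of CpG-rich members held in every distance class, with medians of 54.6 and 9.05 between 1 and 2 kb, 19.998 and 9.05 between 2 and 5 kb, 26.9 and 16.9 between 5 and 20 kb, and 25.8 and 9.01 beyond 20 kb.

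Exonic sequence more than 1 kb from a TSS and outside 3′ UTRs was merged into 163342 separate stretches, of which 688 (0.421%) held at least 1 member. Among the 1771 CpG-rich stretches, 270 held a summit (15.2%, 13.6 to 17.0), whereas 418 of the 161571 others did (0.259%, 0.235 to 0.285). A stretch without a summit cannot be scored around one, so the call for stretches was not the same as that for members. CpG-rich stretches held 277 members, against 296 members that were CpG-rich around the summit. The 688 stretches with a summit had a median length of 558 bp, a median GC content of 57.6% and a median CpG ratio of 0.51, and the 162654 without had 137 bp, 45.6% and 0.24. Length and CpG content were therefore set side by side. Below 200 bp, 5.54% of CpG-rich stretches and 0.105% of the others held a summit, and from 1000 to under 2000 bp the shares were 26.3% (21.005 to 32.5) and 1.14% (0.917 to 1.42). At 2000 bp or more they were 17.0% (8.89 to 30.1, 8 of 47 stretches) and 1.55% (1.22 to 1.97). Most CpG-rich exonic stretches carried no summit in the list.

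**Figure D3:**
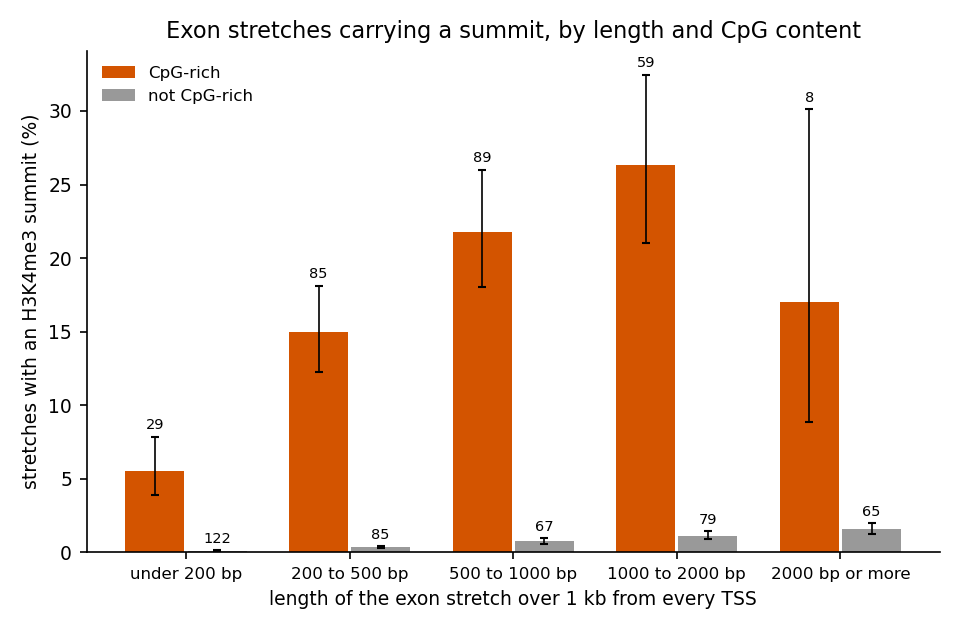
Percentage of exon stretches with at least 1 H3K4me3 summit (vertical axis) by length of the stretch (horizontal axis), for CpG-rich stretches in orange and others in grey; bars start at 0, error bars are 95% Wilson intervals and the number above each bar counts stretches with a summit. CpG-rich stretches stand above the others at every length, with 5.54% against 0.105% under 200 bp and 26.3% against 1.14% at 1000 to 2000 bp. At 2000 bp or more the shares are 17.0% and 1.55%.

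High scores were also seen below the limits set for CpG richness. Among the 6 highest-scoring coding members that were not CpG-rich, the CpG ratio ran from 0.363 at *Kctd4* to 0.585 at *Kcna3*. *Kcna3* and *Bmpr2* (0.572) lay just under the limit of 0.6, and the median of all members that were not CpG-rich was 0.413. Sequences around these 6 are given for contrast with those above, again with CpG in capitals and with *Kctd4* printed once only.
Cdk5r1, chr11:80478177-80478206, plus strand: ggctgtcctgctgacctgtctgtacctctc
Bmpr2, chr1:59764675-59764704, plus strand: cctttCGggtgccctggctgctatgggcCG
Lrrtm3, chr10:64088236-64088265, minus strand: ggccctccccaagcccacatttaagcccaa
Fmn2, chr1:174502938-174502967, plus strand: caccagccttcacctttcCGgaggctgggc
Kcna3, chr3:107037202-107037231, plus strand: ctttgagcttctggtgCGgttctttgcttg

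*Cdk5r1* (ENSMUSG00000048895), which encodes an activator of the neuronal kinase Cdk5, scored 301.4, higher than 99.8% of the list and the highest of all coding members. Its summit lay in coding sequence of its single exon, 1135 bp from the TSS, and the promoter summit of the same gene scored 16.5. The related *Cdk5r2* had the same arrangement, with 250.6 in its single exon at 1155 bp and 26.1 at the promoter. *Lrrtm3* (ENSMUSG00000042846), a leucine-rich repeat synaptic adhesion gene, scored 243.2 in exon 2 of 3 at 1997 bp from the TSS, with no promoter summit and with the next summit 109996 bp away. *Kcna3*, a voltage-gated potassium channel, scored 228.3 in its single exon, *Bmpr2*, a receptor for bone morphogenetic proteins, 243.6 in a first exon of 1329 bp, and *Fmn2*, a formin of the actin cytoskeleton, 228.7 in a first exon of 1767 bp, and none of the 3 had a promoter summit. RefSeq placed a TSS 378 bp from the *Bmpr2* summit, and none nearer than 1054 bp to that of *Kcna3*.

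The remaining high-scoring coding members were of the same kinds. First exons held *Phlpp1*, a phosphatase gene (250.0), *Cnnm2*, a gene of magnesium transport (238.1), and *Pgr*, the progesterone receptor (237.8), all between 1037 and 1571 bp from the TSS. *Sox12* scored 239.96 in a single exon at 1224 bp, with 68.6 at its promoter. *Mapk8ip1*, a scaffold of JNK signalling, scored 237.3 in exon 3 of 12, 3746 bp from its own TSS and 1539 bp from that of another gene, and 200.8 at its promoter. *Sf3b5*, a splicing factor subunit, scored 248.3 at 3470 bp by GENCODE, but RefSeq placed a TSS 363 bp away. *Gadd45gip1* was similar, with a RefSeq TSS 243 bp from its summit.

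The host gene of a member carried a promoter summit in 457 cases (65.0%, 61.4 to 68.4). The promoter summits of these hosts had a median score of 145.4, and the members 13.1. In 79 of the 457 (17.3%, 14.1 to 21.02) the member scored above the promoter, and 34 of the 79 lay within 2 kb of a TSS. The 246 members of hosts without a promoter summit had a median of 36.4 (28.7 to 46.4). Among members at or above the list median, 39 of 102 (38.2%, 29.4 to 47.9) had a host with a promoter summit, against 418 of 601 (69.6%, 65.8 to 73.1) of the rest. The list gives no peak boundaries, so whether the peak around a member also covered the TSS was not measured.

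**Figure D4:**
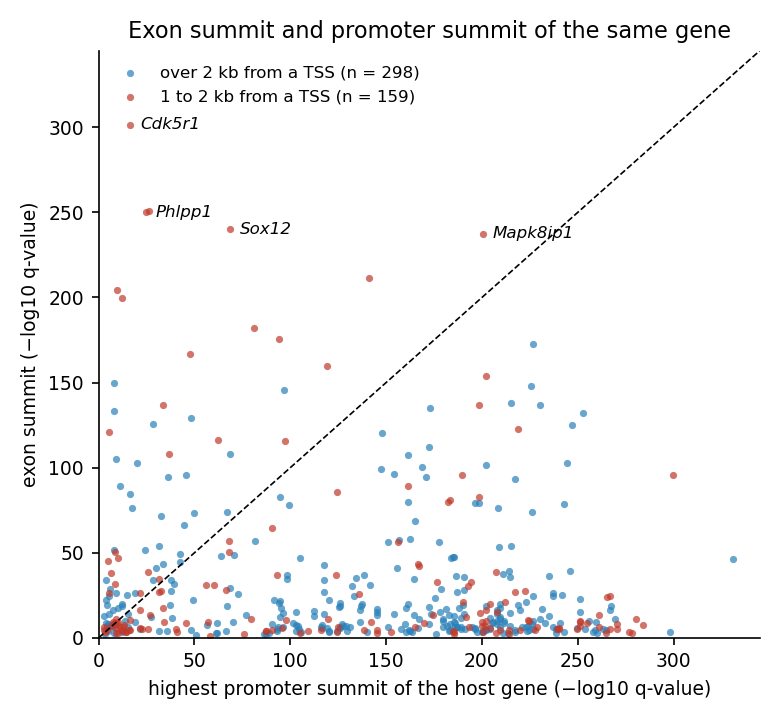
Score of the exon summit (vertical axis) against the highest promoter summit of the same gene (horizontal axis), both as −log10 of the q-value, for the 457 members whose host gene has a promoter summit, in red at 1 to 2 kb and in blue beyond 2 kb from a TSS. The 79 points above the dashed line of equal scores include *Cdk5r1* (301.4 against 16.5), *Phlpp1* (250.0 against 24.9) and *Sox12* (239.96 against 68.6), while most points lie along the bottom.

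The member with the highest score of all, 309.6, lay in exon 2 of 2 of the non-coding gene *Gm26742*, 2580 bp from the nearest TSS, and its host had no promoter summit. *Grm5* (ENSMUSG00000049583), which encodes the metabotropic glutamate receptor mGluR5, had 257.2 at position 87586706 of chromosome 7, in exon 2 of a short non-coding transcript with 2 exons. This summit was 2308 bp from the nearest GENCODE TSS, 2538 bp from the nearest RefSeq TSS and 339983 bp from the next summit, and no *Grm5* TSS had a promoter summit. *Grm5* held another member, in coding exon 5 of 10 and 84511 bp from a TSS, with a score of 10.1. Other non-coding hosts reached 149.6 at *Gm13814*, 136.6 at *A330040F15Rik*, 133.1 at *Gm48356* and 131.4 at *E030044B06Rik*. For *Gm48356*, RefSeq placed a TSS 188 bp away.

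Of the 18 members in 5′ UTRs, the highest were *Zkscan7* with 211.5 and *Zfp503* with 140.1, both zinc finger genes, *Dtx1*, a regulator of Notch signalling, with 185.3, *Agap1*, a regulator of Arf GTPases, with 154.0, and *Tmie*, a gene of inner ear hair cells, with 145.5. RefSeq placed a TSS within 1 kb of 4 of these 5, at 159 bp from *Zkscan7*, 870 bp from *Zfp503*, 562 bp from *Dtx1* and 364 bp from *Agap1*. For *Tmie* it was 5638 bp away. The longest exons that held a member were those of *Sox11* (8311 bp, score 197.1), *Nova2* (7784 bp, 6.20), *Hist1h1d* (7425 bp, 97.4), *Pou3f3* (7409 bp, 134.9) and *Sv2c* (6870 bp, 37.2). A RefSeq TSS lay 167 bp from the *Hist1h1d* summit and 890 bp from that of *Nova2*. *Sox11* and *Pou3f3* are single-exon transcription factor genes, *Nova2* encodes a neuronal splicing regulator and *Sv2c* a synaptic vesicle protein.

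More than 5 kb from every TSS there were 220 members (31.3%), 120 in internal and 100 in last exons. Of those in last exons, 64 (64.0%, 54.2 to 72.7) were CpG-rich, against 26 of the 120 in internal exons (21.7%, 15.2 to 29.9). Over members at all distances, internal exons had a median length of 215.5 bp (upper quartile 496.25), and last exons 1610 bp. The 500 bp window therefore reached beyond most internal exons, so this contrast does not compare exon sequence alone. A promoter summit was present at the host of 159 of the 220 members (72.3%). No other summit of any class lay within 10 kb of 137 of the 220 (62.3%, 55.7 to 68.4). *Rims1*, a scaffold of the presynaptic active zone, was the clearest case among the most distant, with 125.0 in coding exon 7 of 14, 100640 bp from a TSS and 24343 bp from the next summit. Its CpG ratio was 0.97 and its GC content 71.0%, and its promoter scored 247.2. The other distant members scored low, with 6.20 at *Prkd1* (221892 bp, last exon), 13.4 at *Dchs2* (129629 bp) and 8.54 at *Cdh20* (81836 bp), whose genes encode a protein kinase D and 2 cadherins. For *Prkd1*, RefSeq placed a TSS 13831 bp away.

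Members were spread over 674 genes, of which 648 held 1, 23 held 2 and 3 held 3. *Itpkb*, an inositol trisphosphate kinase gene, scored 123.4 in exon 2 of 8, 4.85 in a non-coding exon and 38.9 in exon 7 of 8, and had no promoter summit. A RefSeq TSS lay 804 bp from its summit in exon 2. *Phf21a*, which encodes a reader of unmethylated H3K4, scored 35.8, 14.2 and 28.3 in 3 coding exons and 190.6 at its strongest promoter. *Nkpd1* scored 9.54, 7.59 and 8.38 in exons 3 and 5 of 5, close to the 7.38 at its promoter. Another summit lay within 1 kb of 82 members (11.7%, 9.50 to 14.2), against 10.7% of promoter summits and 14.4% of first-intron summits.

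**Figure D5:**
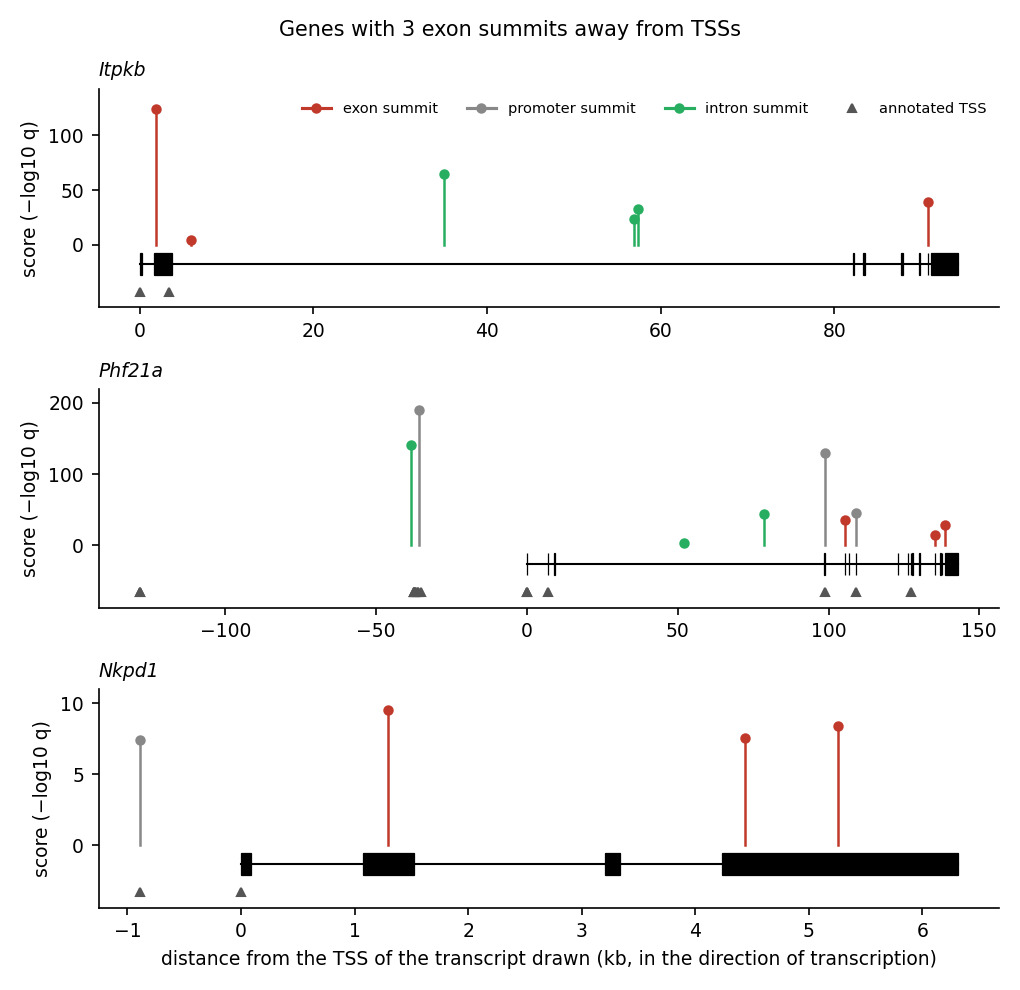
Maps of the 3 genes with 3 members, with distance in kb from the TSS of the transcript drawn on the horizontal axis, exons as black boxes, annotated TSSs as triangles and the score of each summit (−log10 of the q-value) as the height of a stem. *Itpkb* has its highest summit, 123.4, in exon 2 and none within 1 kb of a GENCODE TSS, but RefSeq places a TSS 804 bp from that summit. In *Phf21a* the exon summits, up to 35.8, are below the promoter summit of 190.6.

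Over all 21755 protein-coding genes, 577 had a member in an exon, or 2.65%, which is the background for the gene groups that follow. The exonic length of each gene that lies over 1 kb from a TSS was not taken into account. Of 57 glutamate, GABA and glycine receptor genes, 7 had a member (12.3%, 6.08 to 23.2). Apart from *Grm5* at 257.2, scores were low among those named, with 17.2 at *Grik5*, a kainate receptor subunit, 7.20 at the NMDA receptor subunit *Grin2d* and 3.63 at the GABA-A receptor subunit *Gabra4*. Like the higher *Grm5* summit, those of *Grik5* and *Gabra4* lay in the last exon of non-coding transcripts of these genes.

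Among 187 ion channel genes, 16 had a member (8.56%, 5.34 to 13.4). Behind *Kcna3*, the highest were the potassium channel genes *Kcnk13* (162.6), *Kcnc4* (161.2) and *Kcng2* (82.6), of which *Kcnk13* and *Kcnc4* had no promoter summit. For *Kcnc4*, RefSeq placed a TSS 524 bp away. Among 103 genes of synaptic scaffolds and release, 9 had a member (8.74%, 4.67 to 15.8), led by *Lrrtm3* and *Rims1*. *Slitrk5*, a synaptic adhesion gene, scored 78.5 in its last exon and 242.6 at the promoter, and *Dlgap3*, a postsynaptic scaffold, 57.2 in its last exon and 156.7 at the promoter. *Syp*, which encodes synaptophysin, scored 47.7 in exon 6 of 7.

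Of 283 homeobox, forkhead, Sox and other developmental transcription factor genes, 23 had a member (8.13%, 5.48 to 11.9). The single-exon genes *Sox12*, *Sox11*, *Sox4* (188.7) and *Pou3f2* (159.5) were highest, all between 1195 and 1459 bp from a TSS, and the last 3 had no promoter summit. *Tbr1*, a factor of excitatory forebrain neurons, scored 18.8 in its last exon against 137.0 at the promoter. In contrast, 10 of 417 Zfp genes (2.398%, 1.31 to 4.36) and 6 of 175 chromatin regulator genes (3.43%, 1.58 to 7.28) had a member, near the background. The chromatin regulators were led by *Hdac7*, a histone deacetylase, with 94.5 in exon 13 of 24, *Prdm12* with 84.7 in its last exon against 16.1 at its promoter, and *Bcor* with 79.5. *Chd7*, a chromatin remodeller, scored 27.2 in exon 38 of 38.

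The small groups gave few members, and their shares have wide intervals. Members were found in 3 of 21 immediate early genes (14.3%, 4.98 to 34.6), namely *Fosb* (166.9), *Nr4a2* (10.7) and *Npas4* (5.50). They were also found in 3 of 18 oligodendrocyte genes (16.7%, 5.84 to 39.2), namely *Sox10* (70.0), *Gpr17* (30.9) and *Mag*, with 21.9 and 12.3 in adjacent exons. Of 13 endothelial and mural genes, 2 had a member (15.4%, 4.33 to 42.2), *Pdgfrb* with 48.6 in exon 8 of 24 and *Kcnj8* with 6.29. These shares lay above the background of 2.65%. Of 38 imprinted genes, 3 had a member (7.89%, 2.72 to 20.8). They were *Ndn* with 166.5 in its single exon, *Gnas* with 8.86 and the antisense transcript *Nespas* with 5.31 and 4.26 in its last exon. *Nespas* is non-coding, so the imprinted share is not over coding genes only, as the background is. For *Ndn*, RefSeq placed a TSS 498 bp away. *Fgfr3* (5.50) was the only one of 17 astrocyte genes, *Sptbn4* (13.2) of 78 ankyrin, spectrin and microtubule-binding genes, and *Pcdh17* (8.07) and *Pcdh20* (6.20) of 69 protocadherins. None of 15 microglia and none of 19 germline genes had a member, which at these list sizes leaves upper limits of 20.4% and 16.8%.

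Short motifs were searched on both strands in the 300 bp around each summit. The GC box GGGCGG was found in 26.3% of members (23.2 to 29.7), 25.2% of intergenic summits (23.6 to 26.9) and 39.6% of promoter summits. The shares were 17.0% of first-intron, 16.4% of other-intron and 34.4% of all summits. Within the members the GC box was found in 43.2% of CpG-rich and 14.005% of other windows, and it contains a CpG itself. The AP-1 element TGANTCA, which has no CpG, was found in 6.12% of members and 5.22% of all summits. By class it was found in 4.24% of promoter, 7.99% of first-intron, 9.33% of other-intron and 6.96% of intergenic summits. Within the members it was found in 2.03% (0.932 to 4.35) of CpG-rich members and 9.09% (6.67 to 12.3) of the others. CCAAT was likewise found in 12.2% of CpG-rich and 29.2% of other members, against 22.6% of all summits, and the E-box CACGTG in 6.97% of members and 5.52% of all summits. The ETS site CCGGAAGT occurred in 4 members and the cAMP response element TGACGTCA in 2. CpG-rich windows were also chosen for high GC content, and motif shares were not adjusted for base composition, including those of motifs without a CpG. A match describes the letters and not binding.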

How the data were processed

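Native H3K4me3 ChIP-seq of WT amygdala was analysed from the deposited list of peak summits. Per the Methods and the submitters' processing notes, the authors mapped the reads with Bowtie to mm10, retained only unique alignments, used SAMtools and called peaks with MACS2 2.1.0.20140616 against the input, with filters on q-value and fold enrichment. The deposited score column is not named in the file and was read as −log10 of the q-value, as MACS2 writes it. The list does not state how many reads lie behind a score. The Methods state a removal of black-list regions with the common peak sets and count tables, and do not say whether it was applied to this list. Both WT mice were pooled, so the number of animals (2) gives no spread. Of the columns with values per sample, 0 were left unmatched. Mutant samples were not analysed here.

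Of 24162 summits, 30 on other sequences were set aside. The rest were assigned, in this order, to promoter (within 1 kb of a TSS), 3′ UTR of a coding transcript, exon, first intron, other intron or intergenic, with GENCODE M21 on GRCm38 (139486 transcripts, 53843 genes). The order affects counts where transcripts overlap. An exon's rank and kind come from 1 transcript chosen per member, and a summit in exons of several genes was named after 1 of them, with the highest promoter summit of any. GC content and CpG observed over expected were computed in 500 bp around the summit. Shares have 95% Wilson intervals, which cover counting error only. No p-value is given, because summits of 1 list are not replicates.

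The members, gene lists and markers were chosen with earlier results of these data known. Genes named were the 15 highest-scoring members in exons of protein-coding genes (*Grm5* in a non-coding transcript), genes with 3 or more members, the 5 farthest from a TSS, the 5 highest in 5′ UTRs, in non-coding genes and in hosts without a promoter summit, the 5 in the longest exons, the 4 highest of each gene list and 3 summits either side of the 1 kb limit. Genes outside this rule were chosen after their values were seen: *Pomc*, *Fgf23*, *Nrg2*, *Gm5737*, *Trim14*, *Gabra4*, *Grin2d*, *Syp* and *Tbr1*. 1 gene that the rule named is not reported here. Classing was tested on simulated data, and 3200 of 3200 made-up positions were recovered. The made-up genes were coding, lay apart and had 1 transcript of several exons each. Overlapping, non-coding and single-exon transcripts were therefore not tested. Python 3.11.15, numpy 2.4.6, pandas 2.3.3, scipy 1.17.1, pysam 0.24.0, samtools 1.23.1 and matplotlib 3.10.9 were used.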

Additional observations from a re-analysis of the deposited data

How the results depend on the processing

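The list is pooled and holds no column per animal, so leaving out an animal was not possible, and no p-value or replicate error stands behind any value. No paired analysis was possible because the 2 WT mice share 1 list. A value was taken as moved where it left its own 95% interval, or for the number of members where it changed by over 1.5 times, and the cause was not tested. Of the values recomputed, 50 moved and 32 stayed. Alternatives were planned, except those for the density ratio and for exon stretches, which were chosen after seeing the data.

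The main values were 703 members, 2.91% of summits, a median score of 17.1, 72.4% in coding sequence, 65.0% with a promoter summit at the host, a median distance of 2702 bp, a median CpG ratio of 0.57 and 11.7% with another summit within 1 kb. With only summits at or above the median score these became 102, 0.845%, 161.9, 82.4%, 16.7%, 1459 bp, 0.69 and 0%, the promoter summits being held to the same threshold. With scores of 10 or more they became 429, 2.20%, 42.1, 77.9%, 55.01%, 2911 bp (not moved), 0.63 and 4.43%. Joining summits within 1 kb moved only the last, to 0%, by construction.

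With a limit of 500 bp the number was 1233, the share 5.11%, the median score 36.8, the coding share 65.4%, the share with a promoter summit 79.1%, the distance 1189 bp and the CpG ratio 0.61. With 2 kb, the number was 433, the share 1.79%, the coding share 76.9%, the promoter share 68.8% and the distance 5089 bp. With 3 kb these were 326, 1.35%, 81.6%, 68.7% and 7450 bp. Restricting TSSs and exons to protein-coding genes, the share was 2.70%, the coding share 85.6%, the promoter share 69.0% and the distance 3039 bp. Keeping 3′ UTRs gave a share of 3.83%, a coding share of 60.2% and a CpG ratio of 0.53. Adding RefSeq TSSs gave 2.59%. A CpG window of 1000 bp gave a ratio of 0.49.

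The ratio of exon to intron density, 4.29, became 7.78 at or above the median score and 5.54 at scores of 10 or more. The share of CpG-rich stretches with a summit, 15.2%, became 3.73%, 11.7% and, with a stricter definition (GC 55%, ratio 0.65), 22.2%. That of other stretches, 0.259%, became 0.0223%, 0.134% and 0.288%. CpG-rich stretches were above the others in each case. Scores are limited by depth, which the list does not give.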

Other observations

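Scores took repeated values. Of the 703 members, 544 (77.4%, 74.1 to 80.3) shared their exact score with at least 1 other summit of the list, and 83.9% of promoter summits did. The score 6.20 alone occurred at 272 summits, 12 of them members, among them *Prkd1* and *Nova2*.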
